A study of Arabidopsis thaliana with 12 samples.

Results

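The xyloglucan endotransglucosylase/hydrolase (XTH) family of Arabidopsis thaliana, XTH1 to XTH33, was followed across 12 RNA-seq libraries of whole seedlings. Its 33 members were taken by locus code from a deposited table of 37336 genes. Of these, 29 members passed the filter on low counts, which left 21376 genes for testing.

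The seedlings were Col-0 wild type or the double mutant er erl2, which carries the alleles er-105 and erl2-1 of the receptor kinase genes ERECTA (ER) and ERECTA-LIKE 2 (ERL2). All were 3 days past germination and spent 30 min in liquid medium before a 30 min treatment with 1 uM the auxin IAA (indole-3-acetic acid) or with solvent alone (mock), and both carried 0.02% DMSO. Each of the 4 groups had 3 libraries. The factorial design asks how IAA changes transcript levels in each genotype and how the genotypes differ in each treatment. The labels do not say whether the replicates were separate cultures, so p-values measure the spread between these libraries.

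Total counts ran from 28930625 to 35837999 per library, and the family took 0.167% to 0.221% of them. ER counts were 1636 to 1973 in wild type and 159 to 310 in er erl2, and ERL2 counts were 287 to 414 and 73 to 142. Markers of both roots and photosynthetic shoots were detected in every group. The summed level of 6 root-hair markers was lower in er erl2 mock (61.5 to 74.3 normalized CPM, counts scaled to a common library size with TMM factors) than in wild-type mock (85.5 to 105). Of these 6 genes, 3 were called lower and 0 higher for genotype under mock (adjusted edgeR p under 0.05), where 7.33% of all genes were lower and 8.4% higher. The summed level of 6 photosynthetic markers was higher in er erl2 mock (37300 to 39300 normalized CPM) than in wild-type mock (32700 to 34500), with 3 of 6 called higher and 0 lower. In whole seedlings, fewer cells of a type and less RNA per cell cannot be told apart. Of 9 seed storage genes, 7 did not pass the count filter.

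Xyloglucan is the main hemicellulose that ties cellulose microfibrils together in the primary walls of Arabidopsis. XTH enzymes cut a xyloglucan chain and join the new end to another chain (endotransglucosylase activity) or to water (hydrolase activity), which loosens or rebuilds the wall as cells grow. Members of group I/II, XTH1 to XTH26, are transglucosylases where tested. The group III-A enzymes XTH31 and XTH32 are the hydrolase branch. Group III-B holds XTH27 to XTH30 and XTH33.

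The active site shows what the family shares. Its catalytic glutamates and the aspartate between them lie in a short conserved stretch, and the coding DNA of that stretch was read from the RefSeq TAIR10.1 genome for the members the results turn on. Capitals mark the codons of the first glutamate (the nucleophile), the aspartate and the second glutamate (the acid/base).
XTH8: gacGAGataGATttcGAAtttctaggg
XTH13: gatGAAatcGACttcGAGttcttgggt
XTH17: gatGAGatcGATttcGAGttcttggga
XTH18: gatGAGattGATttcGAGttcttagga
XTH19: gatGAGattGATttcGAGtttttgggg
XTH22: gacGAGataGATttcGAGtttttaggg
XTH31: gatGAGgtcGATatcGAGtttctaggg
XTH33: gacGAGataGACataGAAttgttgggt
The pattern was found in 32 of the 33 members, all but XTH11, in the longest annotated coding sequence. The codon just before the second glutamate encoded phenylalanine in 27 members and isoleucine in 5, which were XTH29 to XTH33. Both group III-A members were thus among the 5, with 3 of the 5 members of group III-B.

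Several members are close copies, which matters for counting. XTH12 and XTH13, neighbours on chromosome 5, had coding sequences identical at 89.4% of aligned positions. XTH18 and XTH19, neighbours on chromosome 4, were identical at 87.6%. XTH18 and XTH20 were identical at 85.6%, as were XTH17 and XTH18, and XTH19 and XTH20 at 82.8%. Reads that match both copies of such a pair could be split or dropped in the authors' counting, so the values of these pairs are uncertain to that extent. XTH15 overlaps AT4G14120 on the opposite strand by 382 bases, and its counts are uncertain because the strand setting of the counting is not given.

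Levels differed widely within the family. To compare genes, counts were divided by gene length (RPKM, normalized CPM per kilobase of exons). XTH4 (AT2G06850), known for a role in xylem cell growth, had the highest level in wild-type mock, 374 to 428 RPKM over the 3 libraries, or 27.2% of the summed level of the family. Its range did not overlap that of the next gene. XTH24 (AT4G30270, also called MERI5B) followed at 93 to 171 RPKM, XTH16 at 100 to 132, XTH27, active in the vascular tissue of leaves, at 91.5 to 103, and XTH22 (AT5G57560, TCH4, first found as a touch-induced gene) at 48.9 to 145. From XTH24 to XTH17 each gene overlapped the next in the order, so these ranks do not separate neighbours.

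At the low end were XTH21 at 2.03 to 3.90 RPKM, XTH11 at 1.72 to 2.48, XTH10 at 0.820 to 1.54 and XTH25 at 0.0856 to 0.685. The other 4 members did not pass the count filter. XTH1 was at 0 counts in every library, where 3 counts, taken as the smallest level the depth can show, equal 0.083 to 0.101 normalized CPM. XTH3, a mainly floral member that can also join cellulose chains, had 1 count in 1 library, XTH2 had at most 6 counts and XTH29 at most 7.

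**Figure D1:**
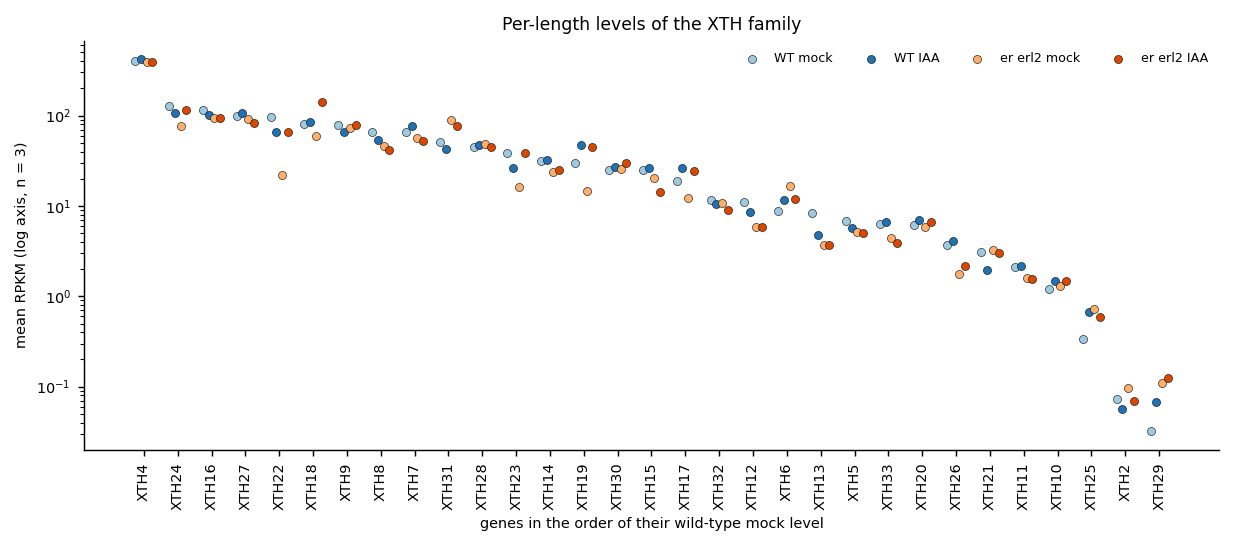
Mean per-length level (RPKM, log axis, n = 3) of each XTH gene in the 4 groups, ordered by the wild-type mock level. XTH4 stands apart at the top, XTH25, XTH2 and XTH29 lie lowest, and XTH1 and XTH3, at 0 in wild-type mock, are not drawn.

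The summed level of the family was 1460 ± 103 RPKM (SD, n = 3) in wild-type mock and 1220 ± 78.4 in er erl2 mock. The libraries ranged from 1340 to 1540 and from 1160 to 1310, so these groups did not overlap. With IAA the sums were 1420 ± 84.9 in wild type and 1420 ± 110 in er erl2, and they overlapped.

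IAA raised few XTH genes. In wild type none of the 29 tested members was called (0 at an adjusted edgeR p under 0.05), where 1.21% of all genes were. At an unadjusted p under 0.05 there were 4 members, where 9.77% of all genes were, and the DESeq2 Wald test called 3 (XTH19 higher, XTH8 and XTH13 lower) and limma-voom 0. In er erl2, 2 of 29 members were called, both higher, against 1.53% of all genes, 1.29% higher and 0.243% lower. The members had a median log2 fold change of 0.05 in the wild type, with 0.01 for er erl2, and the median of all genes was 0 in each.

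The members called were XTH19 and XTH17, which belong to a small subgroup with XTH18 and XTH20 that is known for expression in the elongating root. XTH19 (AT4G30290, chromosome 4) is also known as an auxin-induced gene of dividing tissue at cut stems. In wild type it was at 34.0, 46.9 and 39.4 normalized CPM under mock and at 50.9, 81.3 and 54.8 with IAA. In er erl2 it was at 18.0, 17.8 and 22.6 under mock and at 65.9, 44.1 and 71.3 under IAA. All IAA libraries lay above all mock libraries in each genotype.

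The log2 fold change of XTH19 with IAA was 1.63 (SE 0.238, adjusted p 0.00734) in er erl2, a 3.10-fold rise that was called in every alternative fit (other filters, scalings and tools, blocks, only the groups compared, and each library left out), with an adjusted p of at most 0.0494. In wild type the estimate was 0.64 (SE 0.229, adjusted p 0.393). Over the mean of both genotypes XTH19 rose by 1.13 (SE 0.165, adjusted p 0.00448).

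XTH17 (AT1G65310, chromosome 1) acts in root cell elongation. It was at 21.1, 27.1 and 22.5 normalized CPM in wild-type mock and at 31.5, 35.5 and 32.4 with IAA. In er erl2 it was at 14.0, 13.0 and 18.1 under mock and at 32.6, 21.2 and 37.9 with IAA, again without overlap.

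XTH17 rose by 1.02 (SE 0.200, adjusted p 0.0321) on the log2 scale in er erl2, and its estimate in wild type was 0.49 (SE 0.196, adjusted p 0.439). The er erl2 call was lost in 8 of the 12 fits that left out a library, with estimates of 0.84 to 1.23 and an adjusted p of up to 0.147 over the 12. It was also lost with no count filter, with the replicate block and with only the groups compared, with an adjusted p of up to 0.18 over all fits. Among the 12, it held without wild-type mock replicate 1 or 2, er erl2 mock replicate 3 or er erl2 IAA replicate 2. Over the mean of both genotypes it rose by 0.76 (SE 0.140, adjusted p 0.0147), a call lost without wild-type mock replicate 1 or er erl2 mock replicate 1, with an adjusted p of up to 0.0515 and estimates of 0.67 to 0.86.

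XTH18 and XTH20 complete the subgroup. XTH18 (AT4G30280) was at 61.7, 116 and 129 normalized CPM in the mock libraries of wild type and at 107, 122 and 93.6 in those with IAA. The er erl2 libraries were at 72.1, 85.4 and 66.9 without IAA and at 201, 94.6 and 233 with it. Its estimate with IAA in er erl2 was 1.24 (SE 0.360, adjusted p 0.199), not past the threshold with edgeR, and the groups did not overlap. It was called by the DESeq2 Wald test and without er erl2 IAA replicate 2, and ran from 0.98 to 1.54 with 1 library left out. XTH20 (AT5G48070), a gene of vascular tissue, had 247, 230 and 299 raw counts under mock and 351, 337 and 277 with IAA in wild type, and 246, 208 and 356 and then 291, 325 and 268 in er erl2. It ranged from 6.94 to 10.9 normalized CPM, and the groups compared overlapped, with estimates of 0.19 (SE 0.147) in wild type and 0.20 (SE 0.147) in er erl2.

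The sequences upstream of the subgroup are shown because these close copies differed in level and in how many of their contrasts were called. Each is the 250 bases before the annotated start, on the strand of the gene in TAIR10.1, from chr1:24256804-24257053 (plus strand) for XTH17, chr4:14827212-14827461 (minus strand) for XTH18, chr4:14830225-14830474 (minus strand) for XTH19 and chr5:19481647-19481896 (plus strand) for XTH20. Capitals mark a match to one of the motifs named after them.
XTH17: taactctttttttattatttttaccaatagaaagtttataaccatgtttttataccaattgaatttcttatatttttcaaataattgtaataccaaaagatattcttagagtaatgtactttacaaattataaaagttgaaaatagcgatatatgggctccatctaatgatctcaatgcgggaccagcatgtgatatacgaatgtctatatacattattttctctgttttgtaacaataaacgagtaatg
XTH18: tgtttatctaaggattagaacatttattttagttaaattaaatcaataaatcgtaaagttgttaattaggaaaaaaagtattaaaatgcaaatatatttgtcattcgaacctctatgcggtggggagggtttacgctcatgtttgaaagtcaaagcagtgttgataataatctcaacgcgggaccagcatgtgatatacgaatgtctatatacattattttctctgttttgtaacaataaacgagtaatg
XTH19: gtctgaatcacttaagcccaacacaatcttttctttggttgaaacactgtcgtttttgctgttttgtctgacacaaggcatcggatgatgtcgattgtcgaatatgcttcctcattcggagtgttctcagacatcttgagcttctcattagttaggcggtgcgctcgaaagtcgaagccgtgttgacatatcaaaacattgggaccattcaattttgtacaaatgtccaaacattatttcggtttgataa
XTH20: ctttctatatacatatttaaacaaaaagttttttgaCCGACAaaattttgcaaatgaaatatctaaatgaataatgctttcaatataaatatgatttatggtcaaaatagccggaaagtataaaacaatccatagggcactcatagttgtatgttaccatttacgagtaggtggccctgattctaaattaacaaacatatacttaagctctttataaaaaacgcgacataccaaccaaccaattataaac
The last 73 bases before the start were identical in XTH17 and XTH18, which lie on different chromosomes. The motifs searched on both strands were the auxin response motifs TGTCTC and TGTCGG and the G-box CACGTG, in a window from 250 bases before to 50 after the start. XTH20 had TGTCGG on the reverse strand, 214 bases before the start. XTH17, XTH18 and XTH19 had none of the 3 in this window. TGTCTC was found in 3 of 33 members (14.2% of 27443 protein-coding promoters), TGTCGG in 2 (5.12%) and CACGTG in 0 (7.68%).

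Over the mean of both genotypes, 3 of 29 members were called for IAA, 2 higher and 1 lower, against 2.65% of all genes, 1.94% higher and 0.711% lower. The lower one was XTH8 (AT1G11545), at 77.9, 86.9 and 77.2 normalized CPM in wild-type mock and 70.4, 66.5 and 60.0 with IAA, and at 59.2, 50.3 and 57.5 in er erl2 mock and 52.8, 50.2 and 47.4 with IAA. The groups separated in wild type and overlapped in er erl2. It fell by 0.22 (SE 0.0552, adjusted p 0.0442), a call that 9 of the 12 fits without 1 library and 3 other alternatives did not keep, with an adjusted p of up to 0.124. It held without wild-type mock replicate 3, wild-type IAA replicate 1 or er erl2 mock replicate 2, and the estimate ran from -0.26 to -0.19 over the 12.

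**Figure D2:**
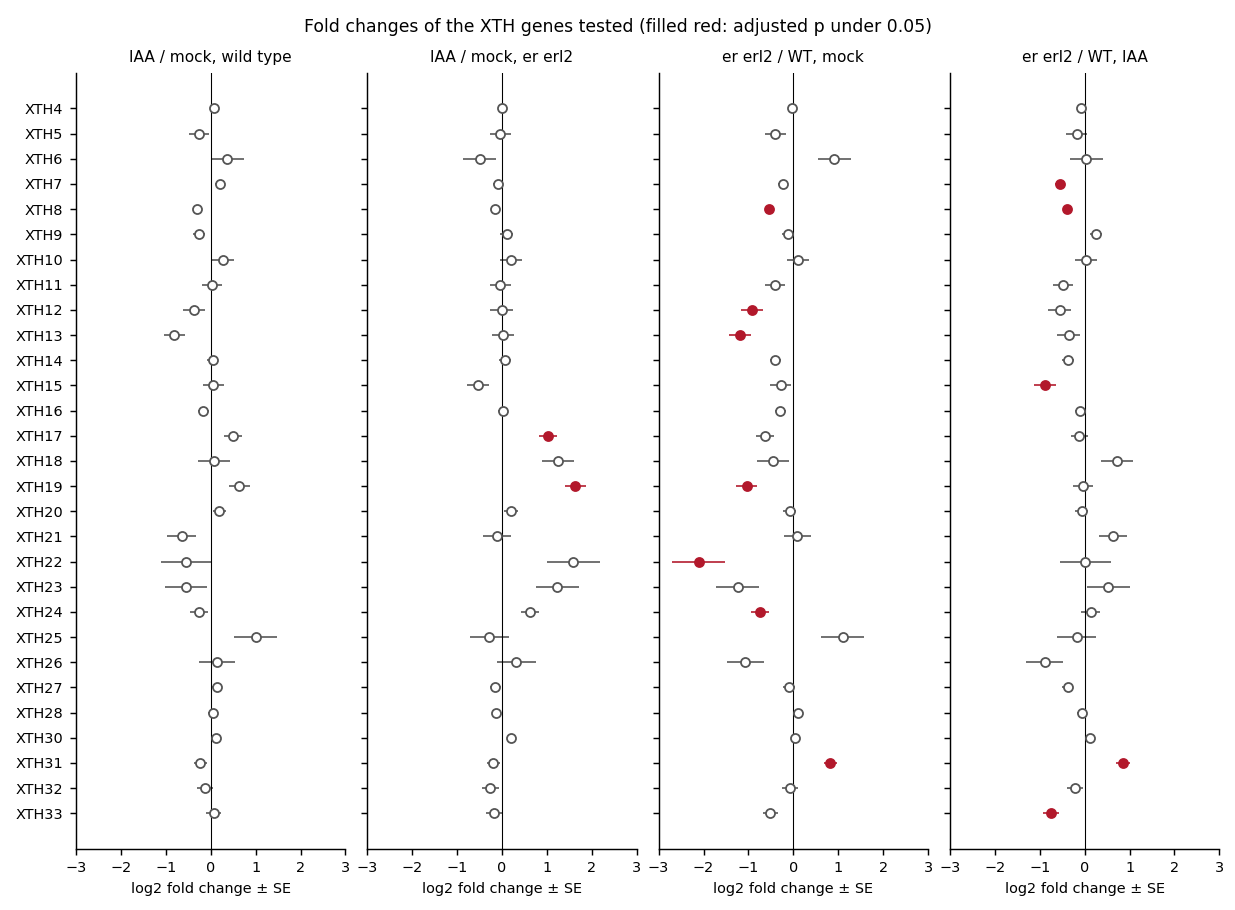
Log2 fold changes with SE of the 29 XTH genes tested, for IAA against mock in each genotype and er erl2 against wild type in each treatment. Filled red points passed an adjusted p of 0.05, which holds for 0, 2, 7 and 5 members from left to right.

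The genotypes differed in more members. Under mock, 7 of 29 members were called, or 24.1%, against 15.7% of all genes. Of these, 6 were lower in er erl2, against 7.33% of all genes, and 1 was higher, against 8.4%. The median log2 fold change of the members was -0.29, where that of all genes was -0.01. Under IAA, 5 members were called (17.2%, against 14% of all genes), 4 lower and 1 higher, where 6.84% and 7.14% of all genes were. The median was then -0.10 over the members and 0 over all genes. Both contrasts called XTH8 and XTH31, and 10 members were called in at least 1 of them. The shares of all genes called in both or in at least 1 were not counted, so whether these counts exceed them is not known.

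All 6 members called lower under mock belonged to group I/II, which holds 23 of the 29 tested members. In it 19 of 23 estimates were below 0, with a median of -0.40, where 22 of all 29 were below 0. With the values given above, no er erl2 library of XTH8 reached a wild-type library of the same treatment. The log2 fold change of XTH8 was -0.54 (SE 0.0781, adjusted p 0.000359) under mock and -0.39 (SE 0.0784, adjusted p 0.00436) under IAA, past the threshold in every alternative fit, though both are smaller than the minimum of 1 that a stricter call used.

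XTH12, XTH13 and XTH14 are root-expressed members, and XTH26 is known from root hairs. XTH13 (AT5G57540) was at 6.29, 12 and 9.70 normalized CPM in the mock libraries of wild type and at 5.46, 4.95 and 5.53 in those with IAA. The er erl2 libraries were at 3.46, 3.74 and 4.98 without IAA and at 5.37, 3.02 and 3.95 with it. The wild-type mock libraries lay above all others. Under mock XTH13 was lower in er erl2 by a log2 fold change of -1.19 (SE 0.241, adjusted p 0.00527), in every alternative fit. Its estimates were -0.36 (SE 0.246, adjusted p 0.366) between genotypes under IAA and -0.81 (SE 0.236, adjusted p 0.192) for IAA in wild type. The wild-type estimate passed the threshold with the DESeq2 Wald test and without wild-type mock replicate 1 (-1.03, adjusted p 0.021), and ran from -1.03 to -0.59 with 1 library left out.

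Its neighbour XTH12 (AT5G57530) was at 8.79, 15.6 and 13.8 normalized CPM in wild-type mock and 9.58, 7.76 and 12.2 with IAA. In er erl2 it was at 5.78, 6.87 and 7.44 under mock and 7.41, 4.66 and 7.93 under IAA. Under mock it was lower in er erl2 by a log2 fold change of -0.92 (SE 0.250, adjusted p 0.0289). This call was lost with no count filter and without wild-type mock replicate 2 or 3 or any 1 of the er erl2 mock libraries, with estimates of -1.13 to -0.75 and an adjusted p of up to 0.106 over the 12 fits that left out a library.

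XTH14 (AT4G25820) was at 31.6, 42.6 and 35.5 normalized CPM in wild-type mock and 24.5, 27.4 and 31.4 in er erl2 mock, and at 38.7, 33.1 and 41.4 against 31.2, 25.1 and 31.3 with IAA. Neither pair of groups overlapped. Its estimates of -0.40 (SE 0.131, adjusted p 0.0599) under mock and -0.37 (SE 0.131, adjusted p 0.0839) under IAA were not past the threshold with edgeR, and both were with the DESeq2 Wald test. With 1 library left out the mock estimate ran from -0.50 to -0.27 and was called without wild-type mock replicate 1, er erl2 mock replicate 3 or er erl2 IAA replicate 2. XTH26 ran from 2.47 to 7.23 normalized CPM in wild-type mock and from 1.42 to 2.46 in er erl2 mock. Its estimate for genotype under mock was -1.07 (SE 0.419, adjusted p 0.114). That estimate ran from -1.35 to -0.49 with 1 library left out, and was called by the DESeq2 Wald test and without wild-type mock replicate 1. With IAA XTH26 ran from 2.95 to 6.42 in wild type and from 2.01 to 3.09 in er erl2, which overlapped (-0.89, SE 0.407, adjusted p 0.180). The root-hair markers described above were also lower in er erl2 mock, and COBL9, EXPA18 and PRP3 were called at -0.64, -0.54 and -0.59. Between genotypes under IAA, edgeR called 0 of the 6 root-hair markers, against 14% of all genes, and their median was -0.29. Under mock the 6 general root markers, PIN2, SHR and SCR among them, had a median of -0.04. Of these, 0 were called by edgeR, DESeq2 or limma-voom and 0 had an unadjusted p under 0.05. Over all genes edgeR called 15.7%, and 29.3% had such an unadjusted p. With only 6 genes, counts of 0 do not separate the list from these shares. The part of root-hair RNA in the differences of XTH12, XTH13, XTH14 and XTH26 was not tested.

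XTH19, XTH22 and XTH24 were the other members called lower under mock. XTH19, with the values given above, was lower by a log2 fold change of -1.04 (SE 0.238, adjusted p 0.0177). That call was lost without wild-type mock replicate 2 or er erl2 mock replicate 1 or 2, with estimates of -1.16 to -0.91 and an adjusted p of up to 0.069 over the 12 fits that left out a library. XTH17 had an estimate of -0.64 (SE 0.201, adjusted p 0.0563), not past the threshold with edgeR, and was called in 7 alternative fits, the DESeq2 Wald test and limma-voom among them.

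XTH22 was at 77.7, 148 and 231 normalized CPM in wild-type mock and at 29.9, 35.1 and 40.5 in er erl2 mock. With IAA it was at 73.9, 174 and 66.2 in wild type and at 148, 42.7 and 127 in er erl2. The er erl2 mock libraries were low and alike, and every other group spread widely.

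Under mock XTH22 was lower in er erl2 by a log2 fold change of -2.11 (SE 0.596, adjusted p 0.0451). It stayed past the threshold only without wild-type mock replicate 1, wild-type IAA replicate 2 or er erl2 IAA replicate 2 among the 12 fits that left out a library, where estimates ran from -2.43 to -1.68 and the adjusted p reached 0.127. It was also lost with no count filter, with the replicate block and with the block from the column names. XTH24 was at 112, 207 and 143 normalized CPM in wild-type mock and 79.4, 103 and 92.7 in er erl2 mock, which did not overlap, and at 108, 138 and 139 in wild-type IAA and 136, 137 and 149 in er erl2 IAA. Its mock difference of -0.75 (SE 0.203, adjusted p 0.0356) was kept, among the fits that left out a library, only without wild-type mock replicate 1 or wild-type IAA replicate 1 or 2, with estimates of -0.93 to -0.48 and an adjusted p of up to 0.107. It was also lost with no count filter and with only the groups compared.

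XTH31 (AT3G44990, chromosome 3), of the hydrolase branch and also known for its part in aluminium sensitivity of roots, was the member called higher in er erl2 in both treatments. It was at 62.7, 85.7 and 62.2 normalized CPM in wild-type mock and 121, 119 and 132 in er erl2 mock. With IAA it was at 52.8, 56.8 and 70.0 in wild type and 90.7, 115 and 118 in er erl2. Every er erl2 library lay above every wild-type library.

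XTH31 was higher in er erl2 by a log2 fold change of 0.82 (SE 0.148, adjusted p 0.00373) under mock, a 1.77-fold difference, and by 0.85 (SE 0.148, adjusted p 0.00359) under IAA, in every alternative fit, both below the stricter minimum of 1. With IAA its estimates were -0.23 (SE 0.148) in wild type and -0.20 (SE 0.146) in er erl2, neither called. XTH32 (AT2G36870), the other group III-A member, was at 18.3, 24 and 23.9 normalized CPM under mock and 19.8, 17 and 23.6 with IAA in wild type, and at 25.1, 20 and 17.4 and then 18.7, 19.8 and 13.6 in er erl2. The groups compared overlapped. Its estimate between genotypes was -0.21 (SE 0.182) under IAA and smaller than its SE under mock.

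**Figure D3:**
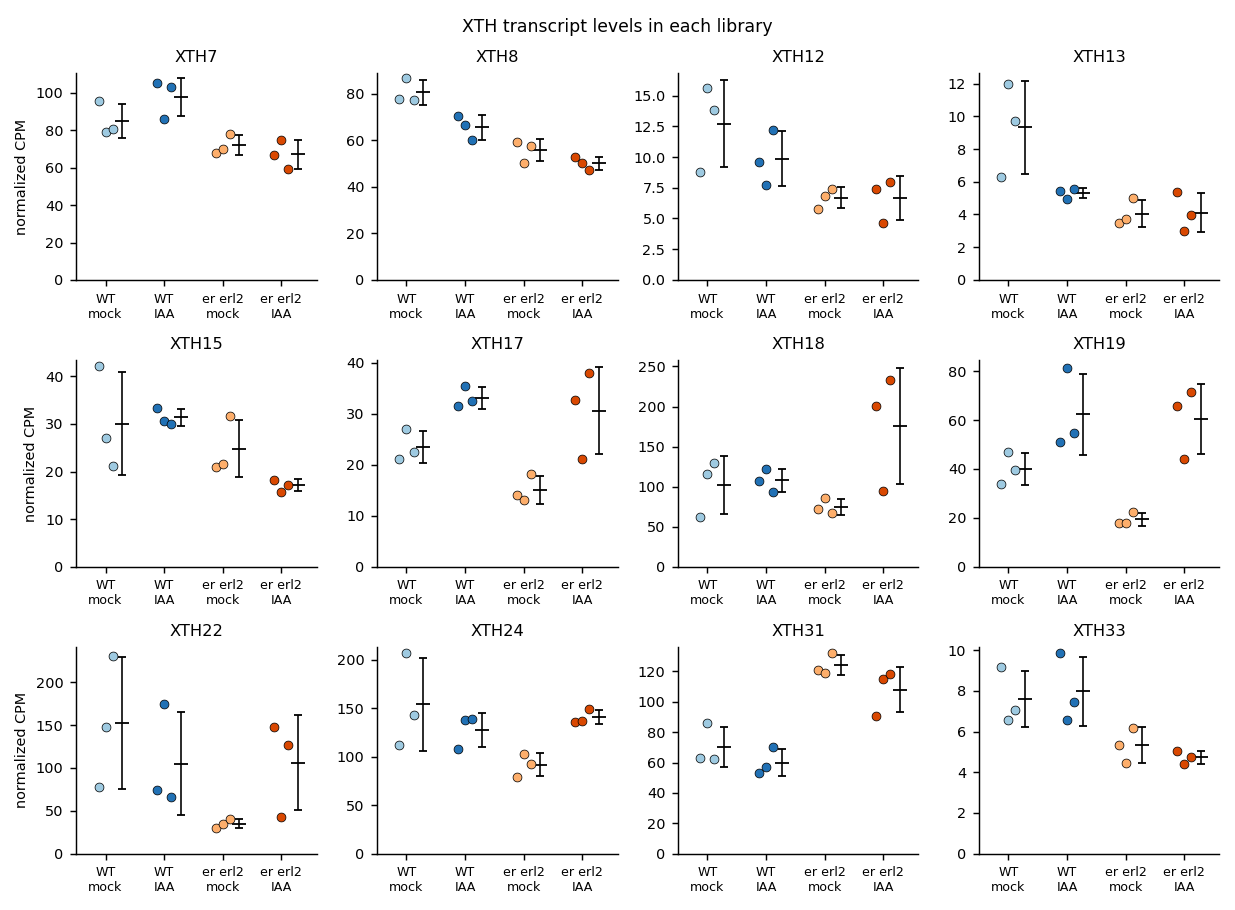
Normalized CPM of 12 XTH genes in each library (points), with the mean and SD of each group of 3 (bars). XTH31 lies higher and XTH8 lower in er erl2 in both treatments, and XTH17 and XTH19 lie higher with IAA in both genotypes.

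Under IAA, XTH7, XTH15 and XTH33 were called lower in er erl2 beside XTH8. XTH7 (AT4G37800) was at 105, 86.2 and 103 normalized CPM in wild-type IAA and 67.0, 74.9 and 59.3 in er erl2 IAA, and at 95.7, 79.1 and 80.7 against 68.0, 70.2 and 77.9 under mock. Neither pair of groups overlapped. Its log2 fold change was -0.55 (SE 0.102, adjusted p 0.00335) under IAA, in every alternative fit but below the stricter minimum of 1, and -0.24 (SE 0.102, adjusted p 0.134) under mock. XTH33 (AT1G10550), which stands apart in the family by a membrane anchor, was at 9.88, 6.56 and 7.47 normalized CPM in wild-type IAA and 5.05, 4.39 and 4.74 in er erl2 IAA. Under mock it was at 9.15, 6.55 and 7.06 in wild type and 5.32, 4.44 and 6.19 in er erl2, and neither pair of groups overlapped. Its log2 fold change was -0.75 (SE 0.175, adjusted p 0.0105) under IAA, lost only without wild-type IAA replicate 1 (-0.56, adjusted p 0.0612), and -0.51 (SE 0.174, adjusted p 0.0614) under mock, where the DESeq2 Wald test, the replicate block and the fit without wild-type IAA replicate 1 called it.

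XTH15 (AT4G14130, also called XTR7), a gene of shade-induced growth, was at 33.4, 30.7 and 29.9 normalized CPM in wild-type IAA and 18.3, 15.7 and 17.2 in er erl2 IAA. Under mock it was at 42.1, 27 and 21.2 in wild type and 21.0, 21.7 and 31.7 in er erl2, which overlapped. Its log2 fold change under IAA was -0.88 (SE 0.239, adjusted p 0.0384), with estimates of -0.93 to -0.81 and an adjusted p of up to 0.109 over the fits without 1 library. The call was also lost with no count filter and with the replicate block. It was lost in 7 of these 12, those without wild-type mock replicate 2 or any 1 of the 6 IAA libraries.

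XTH15 lies in a stretch of chromosome 4 that is rich in genotype differences. Among the 100 tested genes nearest to it on the chromosome, 50 on each side, 10 differed at least 2-fold between genotypes, called one way under mock and under IAA, against 2.16% of all genes tested. The same count was 10 around XTH29 and 19 around XTH1 and around XTH2, and between 0 and 3 around each of the other 29 members. The part of this neighbourhood in the XTH15 difference was not tested.

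No XTH gene was called for the genotype by IAA interaction, which asks whether the IAA response differed between genotypes. The edgeR count was 0 of 29, against 0% of all genes, and the DESeq2 Wald test and limma-voom called 0 of 29 too. At an unadjusted p under 0.05 there were 6 members, XTH13, XTH18, XTH19, XTH22, XTH23 and XTH24, where 5.98% of all genes were. Their estimates (the er erl2 response less the wild-type response) were 0.83, 1.16, 0.99, 2.13, 1.78 and 0.88 on the log2 scale, each with an adjusted p of 0.806.

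In 6 members, XTH17, XTH18, XTH19, XTH22, XTH23 and XTH24, grouped after their values were seen, the spread followed the library, which is a description of genes picked for it. Wild-type mock replicate 1 was the lowest of its group in 6 of the 6, wild-type IAA replicate 2 the highest of its group in 5, and er erl2 IAA replicate 2 the lowest of its group in 5. Over all tested genes these libraries were lowest, highest and lowest in 32.6%, 33.4% and 34.3%. Over all 29 tested members they were so in 13, 13 and 16. Another library, er erl2 mock replicate 3, was the highest of its group in 20 of the 29 members, in 3 of the 6 and in 33.5% of all genes. XTH23 (AT4G25810, also called XTR6), the closest copy of XTH22 in the family, was at 24, 60.5 and 75.0 normalized CPM in wild-type mock and at 31.8, 52.2 and 25.1 with IAA. In er erl2 it was at 24.4, 22.6 and 20.3 under mock and at 70.8, 28.2 and 58.9 with IAA.

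With IAA in er erl2 the estimates of XTH22, XTH23 and XTH24 were 1.59 (SE 0.588), 1.23 (SE 0.483) and 0.62 (SE 0.203), with adjusted p of 0.340, 0.376 and 0.259. None was past the threshold with edgeR. In each the 3 IAA libraries lay above the 3 mock libraries, as in XTH17, XTH18, XTH19 and XTH30 (0.19, SE 0.0783). They lay below in XTH15 (-0.54, SE 0.240) and XTH31 (-0.20, SE 0.146). The share of all genes with groups that separate was not counted, so no conclusion is drawn from the separation. XTH24 was called by the DESeq2 Wald test, with only the groups compared and without wild-type mock replicate 2. In wild type the groups of XTH22, XTH23 and XTH24 overlapped.

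The touch-induced calmodulin-like genes TCH2 and TCH3, chosen after these values were seen, also differed between replicates. TCH2 was at 39.0, 103 and 101 normalized CPM in the mock libraries of wild type and at 68.1, 77.6 and 57.9 in those with IAA. The er erl2 libraries were at 40.2, 39.6 and 31.9 without IAA and at 75.8, 38.6 and 79.1 with it. TCH3 was at 381, 449 and 585, at 507, 492 and 395, at 413, 469 and 233 and at 739, 424 and 887 in the same order. Wild-type mock replicate 1 and er erl2 IAA replicate 2 were the lowest of their groups for both genes, and so were wild-type IAA replicate 3 and er erl2 mock replicate 3. In the 6 XTH genes these last libraries were the lowest of their groups in 3 and in 2. For genotype under mock the estimates were -1.12 (SE 0.388, adjusted p 0.0898) for TCH2 and -0.34 (SE 0.327, adjusted p 0.540) for TCH3. For IAA in er erl2 the estimates were 0.79 (SE 0.387, adjusted p 0.501) for TCH2 and 0.88 (SE 0.329, adjusted p 0.345) for TCH3. For IAA in wild type both were smaller than their SE. The part of touch or handling in the differences of these XTH genes was not tested.

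**Figure D4:**
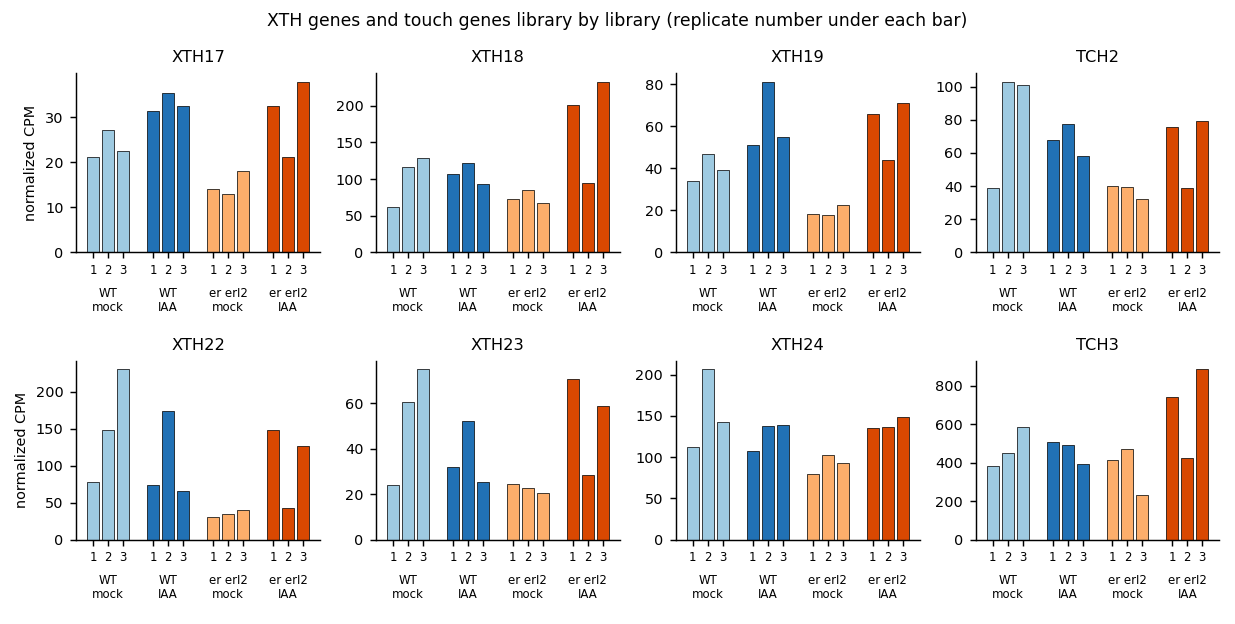
Normalized CPM of XTH17, XTH18, XTH19, XTH22, XTH23 and XTH24 and of the touch genes TCH2 and TCH3 in each of the 12 libraries. In each gene wild-type mock replicate 1 is the lowest of its group, and in all but XTH24 er erl2 IAA replicate 2 is the lowest of its group.

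The family as a whole varied more between replicates than most genes. The coefficient of variation within groups had a median of 18.5% over the 29 members and 9.57% over 21316 genes, and 26 of the 29 were above the latter. It was 47.0% for XTH22, 38.0% for XTH23 and 28.5% for XTH18, and lowest for XTH4 (6.47%), XTH30 (6.98%) and XTH8 (7.20%). XTH25 (AT5G57550), the neighbour of XTH22, had the highest, 49.5%, at 3 to 33 counts per library. Its estimate for genotype under mock was 1.1 (SE 0.476, adjusted p 0.138), from 25, 8 and 3 counts in wild type and 33, 26 and 25 in er erl2. That estimate ran from 0.65 to 2.18 with 1 library left out and was called without wild-type mock replicate 1 (2.18, adjusted p 0.00508). With IAA XTH25 had 28, 29 and 21 counts in wild type and 30, 17 and 20 in er erl2.

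Of the tested members, 11 remain, and edgeR called none of them in any contrast. XTH4 stayed between 563 and 706 normalized CPM in every library, and XTH9, another gene of xylem growth, between 82.4 and 136. XTH16 ranged from 96.4 to 160, XTH27 from 105 to 174, XTH28, a gene of stamen filaments, from 55.2 to 77.1 and XTH30 from 33.7 to 43.7. XTH27 had an estimate of -0.38 (SE 0.128, adjusted p 0.0734) for genotype under IAA, which the DESeq2 Wald test and limma-voom called, as did the fits without er erl2 mock replicate 2 or er erl2 IAA replicate 2 (-0.51 to -0.25 with 1 library left out, lowest adjusted p 0.0119). XTH6 reached 34.9 in er erl2 mock replicate 3, with an estimate of 0.91 (SE 0.367, adjusted p 0.134) for genotype under mock. XTH5 spanned 7.74 to 15.7 and XTH21, a gene of root growth, 1.28 to 4.74. XTH10 spanned 1.11 to 2.37 and XTH11 1.46 to 3.11.

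Genes that make or trim the substrate were counted beside the family. Of 15 genes of xyloglucan synthesis, edgeR called 0 for IAA in wild type (1.21% of all genes), and DESeq2 and limma-voom called 0. At an unadjusted p under 0.05 there were 2 (9.77% of all genes). With 15 genes, these counts do not separate the list from those shares. In er erl2 edgeR called 1 (1.53% of all genes). That gene was CSLC4 (AT3G28180), the main glucan synthase of the xyloglucan backbone, at 0.43 (SE 0.0971, adjusted p 0.0461). That call was lost in 7 of the 12 fits that left out a library, and in 4 other alternatives. The 7 were those without wild-type mock replicate 2, wild-type IAA replicate 1, any 1 of the er erl2 mock libraries or er erl2 IAA replicate 1 or 3, with estimates of 0.34 to 0.51 and an adjusted p of up to 0.196. The estimate in wild type was smaller than its SE.

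CSLC4 had 4637, 4617 and 5222 counts in wild-type mock and 3425, 3177 and 4234 in er erl2 mock. Between genotypes under mock, 2 of the 15 were called lower in er erl2 and 0 higher, where 15.7% of all genes were called and 7.33% lower. CSLC4 was at -0.55 (SE 0.0972, adjusted p 0.00179), called in every alternative fit but below the stricter minimum of 1. The other was CSLC12, another synthase of the same family, at -0.61 (SE 0.167, adjusted p 0.0278). The CSLC12 call was lost with the replicate block and without wild-type mock replicate 2 or 3 or er erl2 mock replicate 1 or 2, with estimates of -0.72 to -0.47 and an adjusted p of up to 0.108. Under IAA, 1 of the 15 was called lower and 0 higher, where 14% of all genes were called and 6.84% lower. It was CSLC5 at -0.29 (SE 0.0771, adjusted p 0.0228), a call lost without wild-type IAA replicate 1 or 3 or er erl2 IAA replicate 3 (-0.34 to -0.20, adjusted p up to 0.105). The median log2 fold change of the list was -0.08 in both treatments, and these counts are near the shares over all genes.

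Of 3 genes that trim xyloglucan in the wall, edgeR called 1 higher in er erl2 in each treatment and 0 lower. Over all genes 8.4% were called higher under mock and 7.14% under IAA, and 3 genes are too few to compare with these shares. The gene called was BGAL10 (AT5G63810), a galactosidase acting on xyloglucan side chains. It had 675, 592 and 532 counts in wild-type mock and 871, 1068 and 1328 in er erl2 mock, which did not overlap. Its log2 fold change under mock was 0.73 (SE 0.121, adjusted p 0.00121), called in every alternative fit but below the stricter minimum of 1. Under IAA it was 0.51 (SE 0.121, adjusted p 0.0134), a call lost with the block from the column names. That call was also lost without wild-type IAA replicate 1 or 3 or er erl2 IAA replicate 1 (0.44 to 0.59, adjusted p up to 0.0577). The xylosidase XYL1 and the fucosidase AXY8 were not called by edgeR in any contrast.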

How the data were processed

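RNA of whole seedlings was poly-A selected and made into stranded libraries, per the labels' protocols. The authors deposited 1 table of raw counts per gene, 1 column per library. STAR 2.7.6a, featureCounts 2.0.0 and the build TAIR10 are listed in the submitters' processing notes. The annotation and the strand setting of the counting are not given in the sources used here.

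Total counts ran from 28930625 to 35837999 per library. All 33 members were in the table. Genes were kept by edgeR's filterByExpr (minimum count 10, minimum total 15). TMM normalization (trimmed mean of M-values) gave factors of 0.973 to 1.02, and 1 mean per group was fitted to the 12 libraries with the robust quasi-likelihood test of edgeR 4.0.16 in R 4.3.3. P-values were adjusted by Benjamini-Hochberg over all genes tested. The standard error (SE) of a log2 fold change is its size divided by the root of F. Adjusted p-values in the report are from this test, except those given for alternative fits, which come from those fits. The procedure was also run on simulated counts, drawn at 1 common biological coefficient of variation of 0.102. The members had a median coefficient of variation within groups of 18.5%, so that run does not measure power or error for them. The alternatives were other filters and scalings, DESeq2 1.42.0, limma-voom (limma 3.58.1), a replicate block, only the groups compared, a minimum fold change, and leaving out each library.

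Coordinates, gene lengths and sequences came from the RefSeq TAIR10.1 genome and annotation. Coding identity is over all columns of a global alignment. No count is linked to those coordinates other than by locus code.

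The members, the gene lists and the rule for naming genes were chosen with earlier results of these data known. All 33 members are accounted for. Values in every library are given for members called in any contrast, for XTH12 to XTH14, XTH17 to XTH20, XTH22, XTH23 and XTH25, and for group III-A, and the other members are given by range and count. Fold changes smaller than their SE are not printed. The genes TCH2 and TCH3, and the grouping of 6 members by their library pattern, were chosen after the values were seen.

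Same-numbered libraries of different groups were compared to learn whether the numbers pair them. The correlations of their deviations from the group means ran from -0.247 to 0.125 over 18 pairs, so the numbers were not treated as pairs. These were the replicate numbers of the sample titles. The numbers in the column names differ from them for some libraries, and pairing by the column numbers was not checked in this way. The replicates of a group differed by more than counting noise, with a chi-square per gene of at least 7.95.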

Additional observations from a re-analysis of the deposited data

How the results depend on the processing

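For IAA in wild type, the DESeq2 Wald test called 3 XTH genes in place of 0 and 411 genes in place of 259, using only the groups compared gave 172 genes and a minimum absolute log2 fold change of 1 gave 144. Leaving out 1 library gave 0 to 2 XTH genes and 164 to 337 genes. For IAA in er erl2, no count filter gave 1 XTH gene in place of 2 and DESeq2 4, while all genes went from 328 to 617 with DESeq2 and 171 with the minimum fold change. Leaving out 1 library gave 1 to 3 and 219 to 561. For the mean IAA effect, DESeq2 called 860 genes in place of 566, and the minimum fold change left 1 XTH gene in place of 3 and 201 genes. Leaving out 1 library gave 1 to 3 and 442 to 765. For genotype under mock, 7 XTH genes became 4 with no count filter, 11 with DESeq2 and 3 with the minimum fold change, which left 734 of 3362 genes. Over all the processing alternatives the count of all genes ran from 734 to 3798, so the XTH counts alone do not show a shift of the family. Leaving out 1 library gave 3 to 11 and 2029 to 3482. For genotype under IAA, the minimum fold change left 0 of 5 XTH genes and 643 of 2989 genes, and leaving out 1 library gave 3 to 6 and 1946 to 3216. For the interaction, DESeq2 called 15 genes in place of 0, and leaving out 1 library gave 0 XTH genes and 0 to 7 genes. The cause of these shifts was not tested, beyond the fewer samples or stricter call that a setting sets by its construction.

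With the replicate number as a block, 0, 1, 2, 7, 4 and 0 XTH genes were called in the 6 contrasts in the order above. The 7 for genotype under mock were not the same genes, since XTH22 was lost and XTH33 gained. Of the 18 pairs of libraries with the same number, 5 had a correlation over 0.1. Pairs with different numbers were not compared, so a batch shared by libraries with the same number was not tested. A block from the numbers in the column names, added after seeing the data, gave 0, 2, 2, 8, 6 and 0. The counts of all genes under these blocks are not given here, so a shift in the family cannot be told from a shift in all genes. Among fold changes that were not called, XTH24 for IAA in wild type turned from -0.26 to 0.01 without wild-type mock replicate 2 (-0.45 to 0.01 over the libraries left out), and XTH15 for genotype under mock from -0.28 to 0.05 without wild-type mock replicate 1 (-0.50 to 0.05). Depth limits XTH1, XTH2, XTH3, XTH29 and XTH25, which had at most 33 counts in a library.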
